A study of Mus musculus with 12 samples.

Results

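The 40 genes described here encode nucleolar and ribosome assembly proteins, subunits of RNA polymerase I and the transcription factor Myc. They were chosen by a list of gene names, and all 40 were found among the 41214 genes counted and passed the low-count filter, which kept 13822 genes. RNA came from leukaemic cells of 4 C57/BL6 mice that all carried the NUP98-HOXD13 transgene, a leukaemia fusion gene also used as a model of myelodysplasia. A pair of mice was heterozygous for the Gfi1 KI allele (KI/wt, called KI) and a pair homozygous for the Gfi1 KD allele (KD/KD, called KD), with 1 library per mouse. The genotypes are written out in the labels of the chromatin libraries, and the RNA labels give het and homo. The sources used here give neither ages nor the promoter of the transgene. In lines of these names the altered allele is known to express human GFI1, which reads counted on the mouse gene need not capture.

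Ribosome assembly starts in the nucleolus, where RNA polymerase I transcribes one long precursor of 3 of the 4 ribosomal RNAs. Small nucleolar ribonucleoproteins (snoRNPs) modify that precursor, the small subunit processome and the large subunit assembly factors fold and cut it, and the particles then mature on their way to the cytoplasm. Myc is known to drive many of these genes in growing and leukaemic cells, and NPM1 is among the most frequently mutated genes of human acute myeloid leukaemia.

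Gene counts came to between 4581593 and 11934542 per library, with KI replicate 1 the shallowest. Of the uniquely aligned reads, 63.2% to 88.3% were assigned to no gene, the highest share again in KI replicate 1. Levels are given in CPM, counts scaled to a common library total by TMM factors. Chemosensory receptor genes, which are not blood genes, had a summed level of 979 CPM in KI replicate 1 and of 143.5 to 236.7 in the others. Gfi1 itself lay at 36.2 and 89.0 CPM in KI and at 7.22 and 1.12 in KD (log2 fold change -3.89 ± 0.86, SE, adjusted p = 0.518). The early granule gene Mpo, a marker of myeloid blasts, was between 897 and 2177 CPM. Summed erythroid markers were 640 and 607 CPM in KI and 139 and 37.2 in KD, and summed late neutrophil granule markers 16360 and 17240 in KI and 3252 and 1432 in KD. In such bulk RNA, fewer cells of a type and less RNA per cell cannot be told apart. Each member had at least 26 counts in every library, and together they held between 6948 and 29803 counts. Levels are not scaled to transcript length, so they are compared between mice and never between genes.

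No member was called as different between the genotypes, in a fit that did not call Gfi1 either. In edgeR's quasi-likelihood test 0 of the 40 were called in either direction, and none had an unadjusted p under 0.05, where 9.63% of all genes tested did (8.34% lower and 1.29% higher in KD) and 0% were called. DESeq2, which called 1.04% of all genes, and limma-voom also called 0 members, as did edgeR with the replicate number as a block, which called 0.0506%. With TMM, 12 of the fold changes were positive and 28 negative, and with library size only 36 and 4. The TMM values ran from -0.79 for Gar1 to 0.46 for Bop1 (log2, KD minus KI). The median member had -0.11 and the median of all genes tested -0.06. With library size as the only scaling the members' median turned to 0.35, while the median of all genes moved from -0.06 to 0.37 in the same fit. Relative to all genes, the members' median lay at -0.05 with TMM factors and at -0.02 with library size only. The loci Gm10800, Gm26870 and Gm10801 together took 39.0% and 44.4% of gene counts in KI and 19.4% and 21.2% in KD. Library size only keeps these loci in the total. Without them the members held 0.2486% and 0.4445% of gene counts in KI and 0.2925% and 0.3683% in KD. The part of these loci in the shift between scalings was not tested. The lowest adjusted p among the members was 0.714, for Wdr12.

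**Figure D1:**
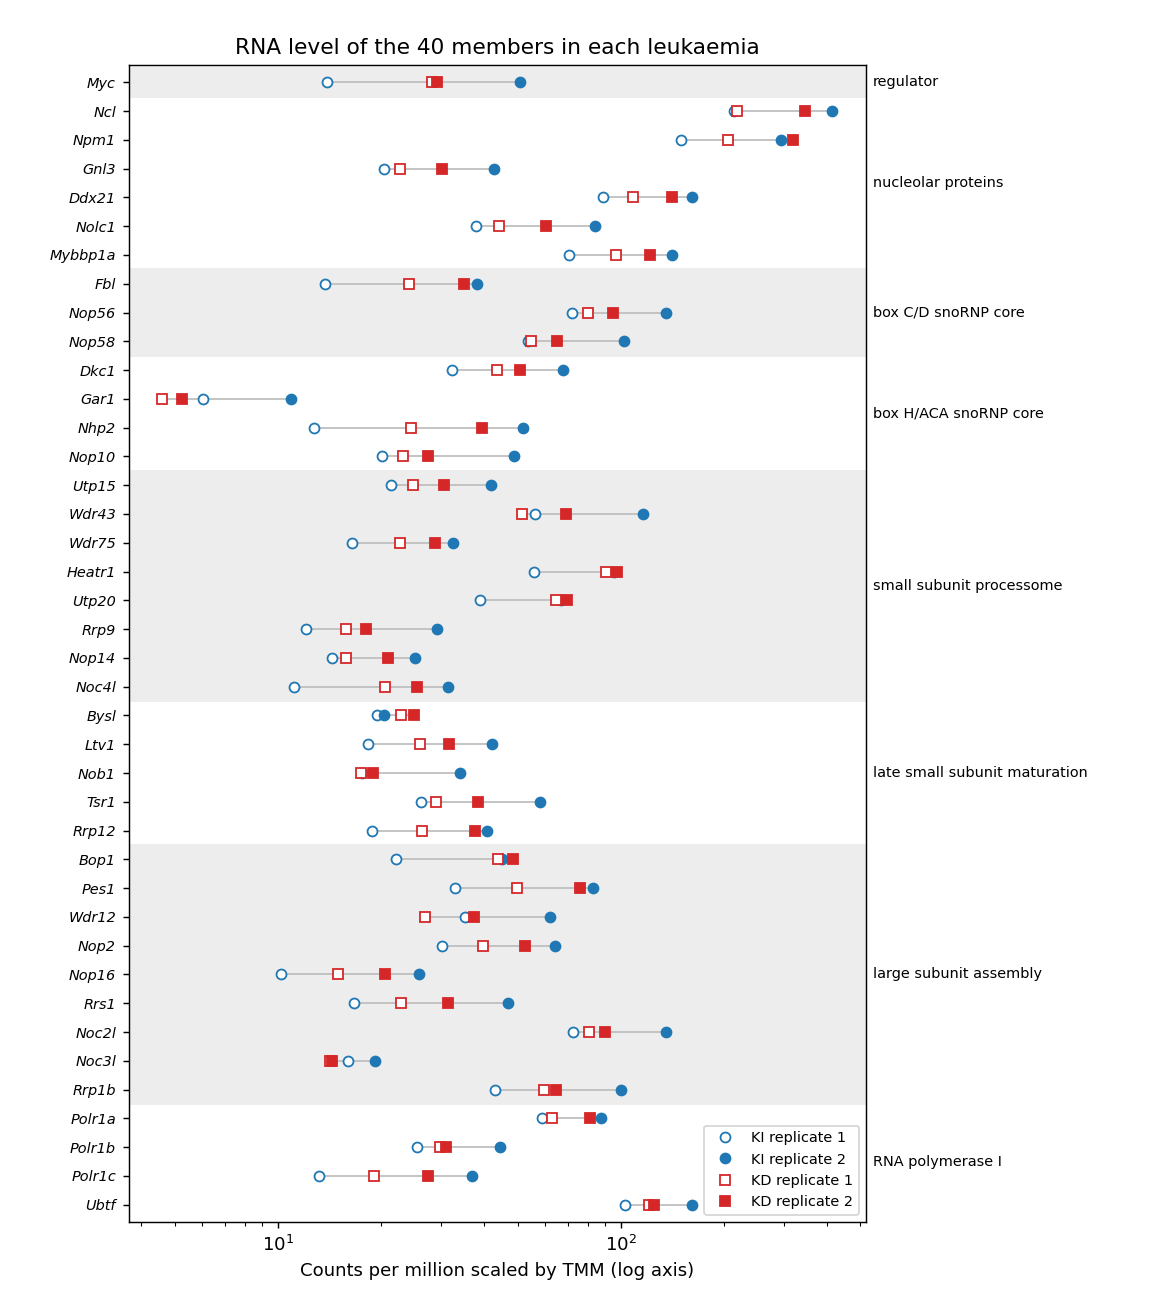
RNA level of each of the 40 genes in each library, in CPM scaled by TMM on a log axis, grouped by role. Open and filled blue circles are KI replicates 1 and 2, open and filled red squares KD replicates 1 and 2, and the grey line joins the lowest and highest library. KI replicate 1 is the lowest point for 35 genes and KI replicate 2 the highest for 35, as they are for 33.6% and 31.4% of all genes tested.

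The larger difference in this group was between the mice of one genotype. All 40 members were higher in KI replicate 2 than in KI replicate 1, as were 50.4% of all genes tested. Of the members 37 were higher by more than 1.5 times, where 25.2% of all genes tested passed that fold. The median ratio between these mice was 2.00 for the members, 1.01 for all genes tested and 1.16 for the 10077 genes with a mean of at least 5 CPM. All 40 were also higher in KD replicate 2 than in KD replicate 1, as were 61.3% of all genes tested. By more than 1.5 times, 4 of 40 were higher, where 16.3% of all genes were. The median ratio between the KD mice was 1.24 for the members and 1.10 for all genes tested. For 30 members both KD mice lay between the KI mice, an order held by 26.2% of all genes tested. With 1 mouse on each side these differences have no replicate check.

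How far this order holds depends on the scaling. KI replicate 2 was above KI replicate 1 for 38 to 40 members under each of 5 scalings, with a median ratio between 1.63 (library size only) and 2.01 (TMM). The members' median stood 0.79 (log2) above that of the expressed genes in every scaling, since a scaling moves all genes alike. In contrast, KD replicate 2 was above KD replicate 1 for 30 to 40 members. Both KD mice lay between the KI mice for 30, 31 and 32 members with TMM, RLE and TMM of named protein-coding genes. That number was 22 with upper quartile factors and 10 with library size only, under which 13 members had both KD mice above both KI mice. Shares of all genes tested are given with TMM only, 26.2% with both KD mice between the KI mice and 14.5% with both above. The counts under the other scalings therefore have no background beside them, and a scaling moves all genes alike.

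Other groups of genes also differed between mice of one genotype. Summed CPM of 16 cell division genes was 2108 and 3419 in KI replicates 1 and 2 and 3335 and 4191 in KD replicates 1 and 2. With TMM all 16 were lowest in KI replicate 1, as were 35 of 40 members and 33.6% of all genes tested. In contrast, 3 of 16 were highest in KI replicate 2, where 35 of 40 members and 31.4% of all genes were. The members' counts depend on the scaling. With library size only 12 members were highest in KI replicate 2, and with upper quartile factors 26 were lowest in KI replicate 1. Matching counts of the cell division genes under these scalings are not given here. Their fold changes, KD minus KI, were positive in 15 of 16 with TMM (median log2 0.34) and in 15 or 16 over the 5 scalings, and 0 were called. Of the 77 cytosolic ribosomal protein genes tested, 76 were higher in KI replicate 2 than in KI replicate 1, at a median ratio of 2.43. The 5 early granule markers summed to 1601 and 3578 CPM in KI and to 2296 and 4153 in KD, and all 5 were higher in replicate 2 of each genotype. The 9 monocyte markers went the other way in KI, where 2 of 9 were higher in replicate 2, and summed to 7256 and 4028 CPM in KI and to 8249 and 7473 in KD. In both lists no marker was at 0 in any library. The part of cell division, cell make-up, depth or reads outside genes in the members' levels was not tested.

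**Figure D2:**
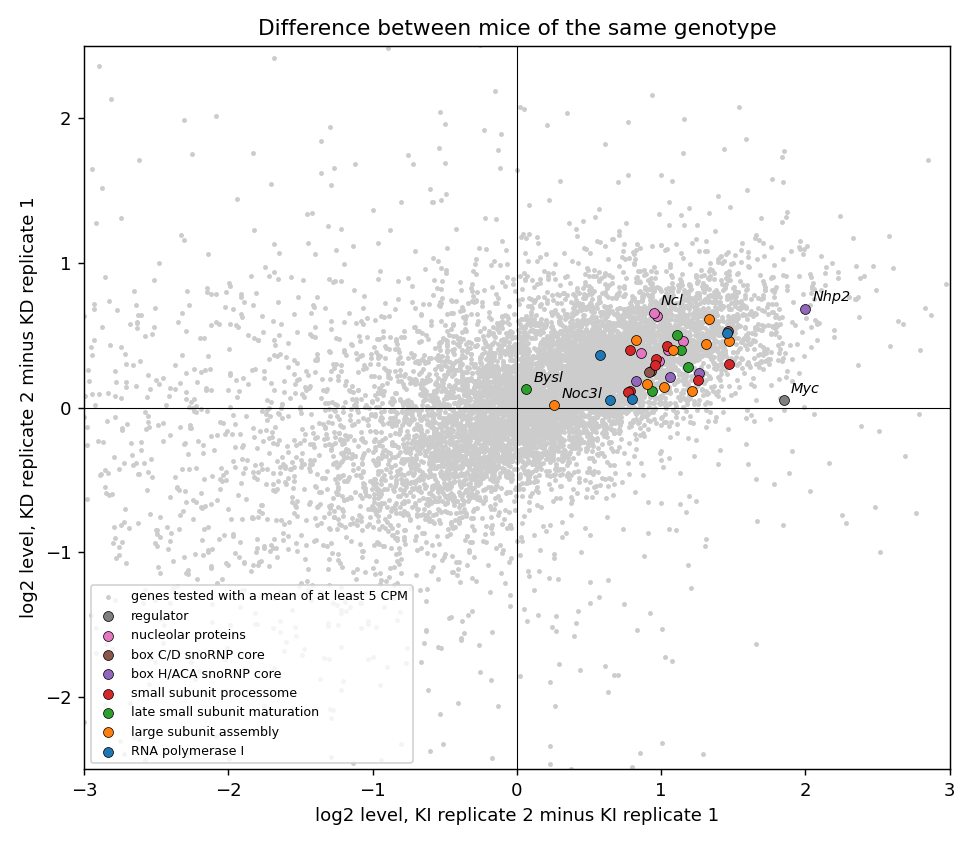
Difference in log2 level between the KI mice (horizontal axis, replicate 2 minus 1) and between the KD mice (vertical axis, replicate 2 minus 1), with the 40 members coloured by role and 10077 genes of at least 5 CPM in grey. All members lie to the upper right of the origin, Nhp2 and Myc farthest along the KI axis and Bysl and Noc3l nearest to 0; 295 genes lie outside the axes.

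Myc, the transcription factor upstream of many of these genes (ENSMUSG00000022346, GRCm38 chromosome 15, 61985341 to 61990361), had 13.9 and 50.9 CPM in KI and 28.2 and 29.2 in KD. The KI mice thus stood on either side of the KD mice, which lay close together. Its means were 32.4 ± 26.1 in KI and 28.7 ± 0.73 in KD (SD, n = 2), with a log2 fold change of -0.19 ± 0.61 (SE) and a 95% interval from -1.70 to 1.33. Without KI replicate 2 the value was 1.11, and without KI replicate 1 it was -0.69. The ratio between the KI mice, 3.60, was exceeded among the members by that of Nhp2, 3.99, a gene named here after its values were seen.

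The nucleolar proteins Ncl and Npm1 differed more between mice of a genotype than between the genotypes. Ncl (chromosome 1, 86344719 to 86359455) encodes nucleolin, which binds the nascent precursor RNA, and had 214.5 and 414 CPM in KI and 218 and 344 in KD. Npm1 (chromosome 11, 33152498 to 33164142) encodes nucleophosmin, a histone and ribosome chaperone, and had 149 and 293 CPM in KI and 205 and 319 in KD. In both genes replicate 2 exceeded replicate 1 in each genotype, and the groups overlapped. The fold changes were -0.16 ± 0.44 for Ncl (95% interval -1.26 to 0.94) and 0.24 ± 0.44 for Npm1 (-0.85 to 1.34, log2, SE). Both turned sign when single libraries were left out, Ncl from -0.53 to 0.44 and Npm1 from -0.11 to 0.86. Ddx21, an RNA helicase of the nucleolus, had the fold change nearest to 0, at 88.6 and 161 CPM in KI and 109 and 142 in KD. Its 95% interval still ran from -0.94 to 0.94, so a KD to KI ratio between 0.523 and 1.92 was within the error. The remaining nucleolar genes Gnl3, Nolc1 and Mybbp1a had fold changes between -0.26 and 0.04, with overlapping groups.

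snoRNPs of the box C/D class carry the methyltransferase fibrillarin (Fbl) on the scaffold proteins Nop56 and Nop58. Fbl (chromosome 7, 28168893 to 28179269) had 13.7 and 38.2 CPM in KI and 24.1 and 34.9 in KD, a log2 fold change of 0.18 ± 0.54 (SE). Nop58 had 53.6 and 102 CPM in KI and 54.6 and 65.2 in KD, a fold change of -0.38 ± 0.39. In Nop58 both KD mice sat in the lower part of the KI range, while in Fbl they sat in its middle and upper part. Nop56 lay between these values at -0.25 ± 0.38.

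The box H/ACA class carries the pseudouridine synthase dyskerin (Dkc1) with Gar1, Nhp2 and Nop10, and all 4 core genes had negative fold changes with TMM and with upper quartile factors. With RLE and with TMM of named protein-coding genes 2 of 4 were negative, and with library size only 1 of 4, Gar1. Gar1 (chromosome 3, 129824912 to 129831407) had 6.03 and 10.9 CPM in KI and 4.60 and 5.27 in KD, from 26 to 92 counts per library. It was among the 3 members whose groups did not overlap with TMM. Its fold change of -0.79 ± 0.55 (95% interval -2.16 to 0.58, adjusted p = 0.743) was the largest in size of the 40. The sign of Gar1 was negative under each of the 14 alternative settings tried. Nop10 had 20.2 and 48.8 CPM in KI and 23.2 and 27.4 in KD (-0.45 ± 0.48), with both KD mice inside the KI range. Dkc1 and Nhp2 had -0.09 and -0.03, and 0.38 and 0.47 with library size only. Over the main and alternative settings, 15 in all, Dkc1 was positive in 8 and Nhp2 in 10.

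In the small subunit processome, the particle that folds the early precursor, 4 members had positive and 4 negative fold changes with TMM, and 7 and 1 with library size only. Heatr1, a processome protein that also acts in RNA polymerase I transcription, had 55.9 and 95.4 CPM in KI and 90.3 and 97.2 in KD (log2 0.31 ± 0.34, SE). Utp20, a scaffold of the same particle, had 38.7 and 66.8 CPM in KI and 64.6 and 69.8 in KD (0.35 ± 0.35). In both genes the KD mice stood level with KI replicate 2, and KI replicate 1 was lower. Wdr43 went the other way, with 56.4 and 116 CPM in KI and 51.5 and 69.4 in KD (-0.52 ± 0.42). Here the KD mice stood nearer to KI replicate 1, and the groups overlapped. Utp15, Wdr75, Rrp9, Nop14 and Noc4l had fold changes between -0.30 and 0.10.

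Late maturation of the small subunit held the 1 member with both KD mice above both KI mice with TMM. Bysl (bystin, chromosome 17, 47599331 to 47611492), named in full after its values were seen, had 19.5 and 20.4 CPM in KI and 22.8 and 24.9 in KD. The gap was small, a log2 fold change of 0.26 ± 0.31 (SE) with adjusted p = 0.923, and the span of Bysl overlaps that of Ccnd3 in the annotation. Nob1, the endonuclease that makes the final cut of the small subunit RNA, had 17.6 and 34.0 CPM in KI and 17.5 and 18.9 in KD (-0.51 ± 0.42). Only KI replicate 2 stood apart in Nob1, and without it the fold change was 0.11. Ltv1, Tsr1 and Rrp12 had fold changes between -0.33 and 0.09. Counts of separated groups in the whole list with TMM, 1 above and 2 below of 40, stand beside 14.5% and 23.5% of all genes tested. With RLE, upper quartile factors and TMM of named protein-coding genes, 6, 7 and 6 members were separated, 4, 3 and 4 of them above. With library size only 13 were, all above, in a fit where the median log2 fold change of all genes was 0.37. Matching shares of all genes under these other scalings are not given here. These counts are therefore not read as a trait of the members.

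Large subunit factors include the PeBoW complex of Pes1, Bop1 and Wdr12, whose members had fold changes of either sign. Bop1 (chromosome 15, 76452988 to 76477249) had 22.0 and 45.0 CPM in KI and 43.9 and 48.6 in KD, a log2 fold change of 0.46 ± 0.41 (SE, adjusted p = 0.847). Wdr12 (chromosome 1, 60071361 to 60098500) had 35.0 and 62.2 CPM in KI and 26.8 and 37.2 in KD, -0.61 ± 0.39 (adjusted p = 0.714). Both signs held in each of the 14 alternative settings, and in both genes the groups overlapped. Pes1 had 0.11 ± 0.51. Both genes overlap other coding genes in the annotation, Bop1 with Mroh1 and Scx and Wdr12 with Carf. Noc3l, which acts in the transport of large subunit precursors within the nucleus, had 16.0 and 19.2 CPM in KI and 14.2 and 14.3 in KD. With TMM it was the other member with both KD mice below both KI mice (-0.31 ± 0.35, adjusted p = 0.911). Nop2, Nop16, Rrs1, Noc2l and Rrp1b lay between -0.29 and -0.03, with overlapping groups.

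RNA polymerase I genes showed the narrowest spread of fold changes of these roles, all 4 between -0.21 and -0.02 with TMM. Polr1a (chromosome 6, 71909053 to 71979435), the largest subunit, had 58.9 and 87.8 CPM in KI and 63.1 and 81.4 in KD. Polr1b, the second largest, had 25.5 and 44.5 in KI and 29.7 and 31.0 in KD. Ubtf, the factor that holds ribosomal DNA open for transcription, had 103 and 161 in KI and 120.6 and 124.9 in KD. In all of these the KD mice lay inside the KI range. The fold changes were -0.02 ± 0.33 for Polr1a, -0.21 ± 0.37 for Polr1b and -0.11 ± 0.32 for Ubtf, and the 95% intervals of the KD to KI ratio were 0.558 to 1.73, 0.456 to 1.64 and 0.536 to 1.61. Polr1c, a subunit shared with RNA polymerase III, had -0.12 ± 0.55. The signs of all 4 depended on the scaling, since with library size only Polr1a had 0.42, Polr1b 0.25, Polr1c 0.36 and Ubtf 0.34.

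**Figure D3:**
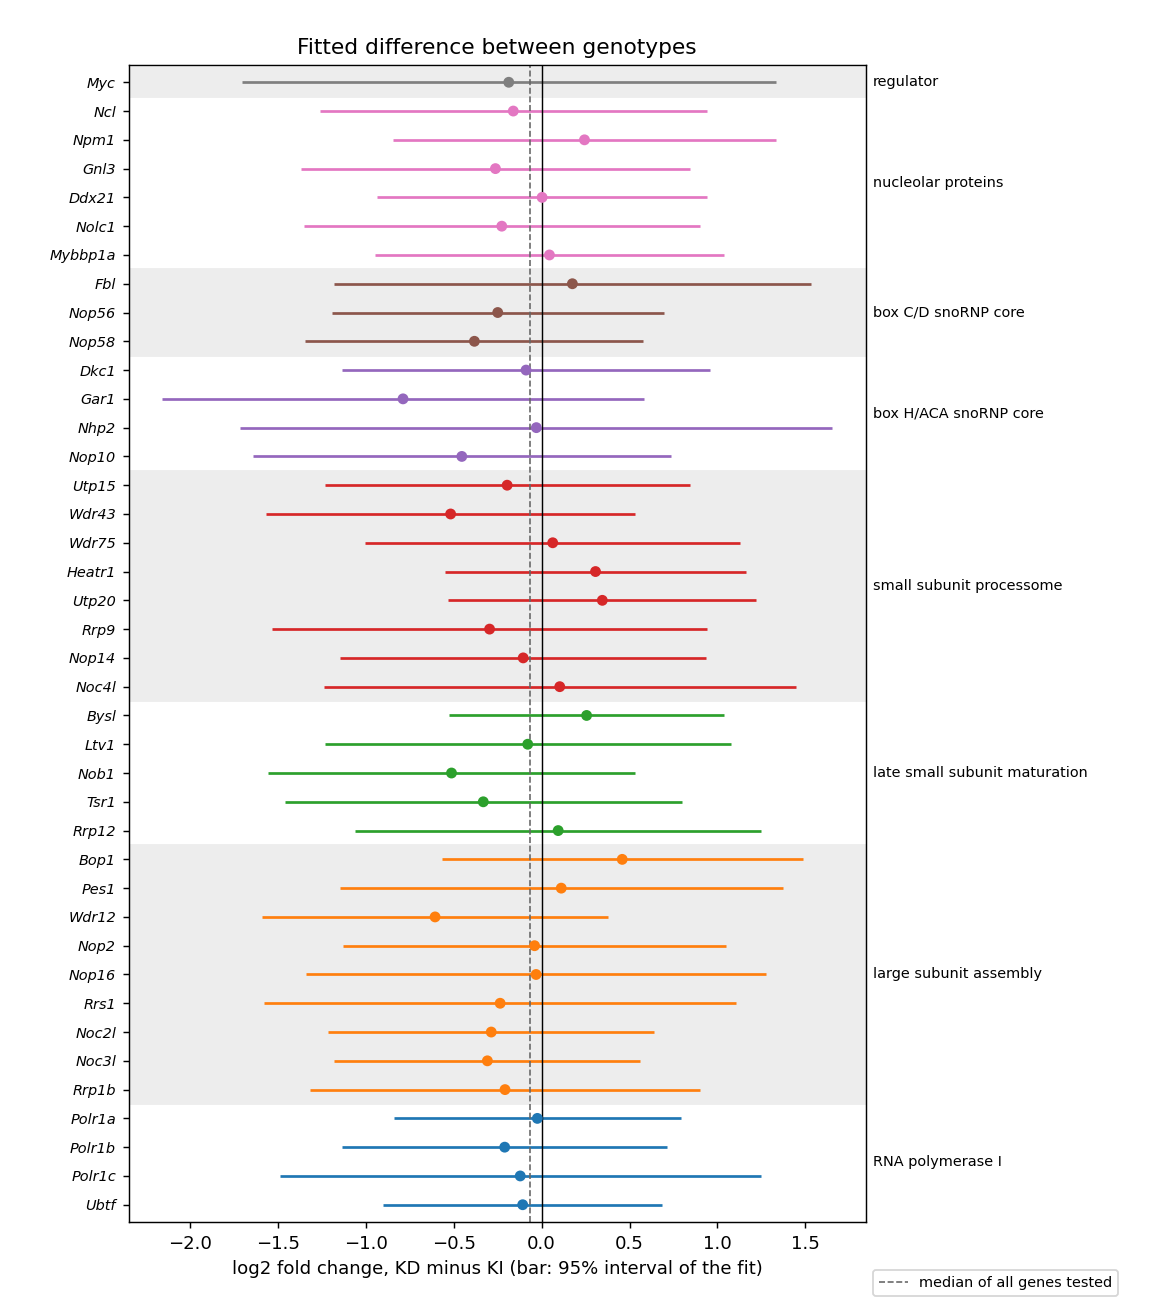
Fitted log2 fold change, KD minus KI, of each member (point) with its 95% interval (bar), coloured and grouped by role; the dashed line is the median of all genes tested, -0.06. Every interval crosses 0, from Gar1 at -0.79 to Bop1 at 0.46.

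Removing what the members share within a library left a pattern of their proportions. For this, chosen after the data were seen, the median log2 level of the 40 members was subtracted in each library, which cancels the scaling factors. Both KD mice then lay above both KI mice for 14 members and below for 8, together 22 of 40. Over all genes tested, the same subtraction gave 12.5% above, 13.8% below and 26.4% together. The centring uses the members themselves and takes out their common part, so their share is a description. Highest in KD on this measure were Bop1 (0.63), Utp20 (0.48), Heatr1 (0.44) and Fbl (0.42), differences of mean centred log2 level. Npm1 stood at 0.38, with 2.64 and 2.50 in KI and 2.83 and 3.06 in KD. Lowest in KD were Gar1 (-0.60), Wdr12 (-0.47), Wdr43 (-0.35), Nob1 (-0.34), Nop10 (-0.23) and Nop58 (-0.22). When edgeR was run with this scaling, 0 members were called and 0 had an unadjusted p under 0.05. Of all 13822 genes tested, 0 were called in that fit and 406 had an unadjusted p under 0.05, where 1331 had with TMM. With so few genes passing, the 0 among the members says little. The snoRNP core genes thus stood on both sides, with Fbl among the high and Gar1, Nop10 and Nop58 among the low.

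**Figure D4:**
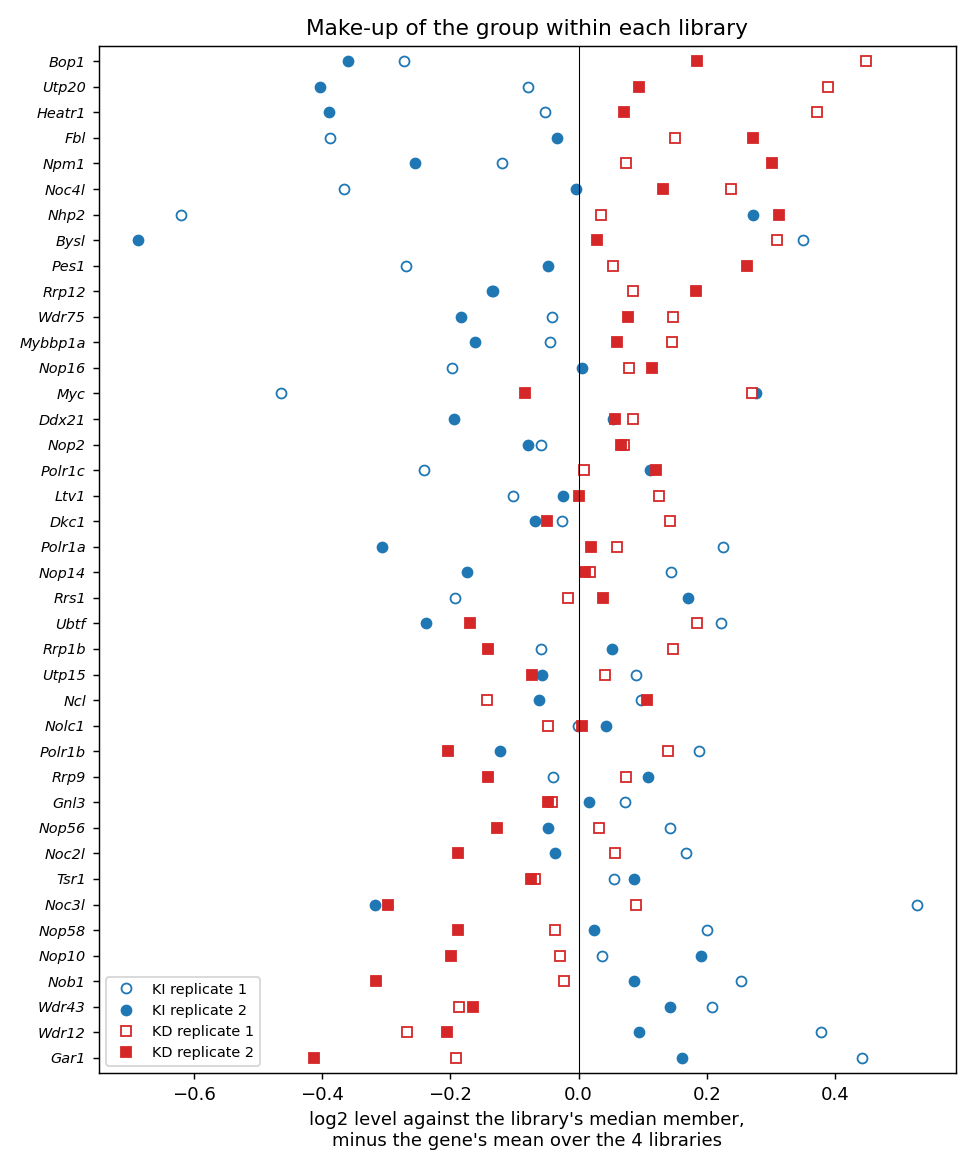
Log2 level of each member against the median member of the same library, minus the gene's mean over the 4 libraries, ordered by the difference between KD and KI. Bop1, Utp20 and Heatr1 at the top have both KD mice (red squares) to the right of both KI mice (blue circles), and Gar1, Wdr12 and Wdr43 at the bottom have them to the left.

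Promoter sequence was set beside these levels because Myc with its partner Max binds the E-box CACGTG. Binding was not measured in the data used here, and the part of Myc in the members' levels was not tested. The windows ran from 250 bases before to 50 after each RefSeq start site (GRCm38.p6), and 34 of 40 members had an entry; Myc, Npm1, Fbl, Rrp12, Bop1 and Rrs1 had none. CACGTG, which reads the same on both strands, was in the window of 7 of the 34 members (20.6%). The share was 19.5% of the 118 other pathway genes with an entry, 12.4% of 7888 genes of at least 5 CPM and 8.09% of all 27025 genes with an entry. The 30 bases around each match are shown 5′ to 3′ on the gene's strand, with the E-box in capitals. On the plus strand lie the windows of Mybbp1a (chr11:72441347-72441376), Nop2 (chr6:125131811-125131840), Pes1 (chr11:3963965-3963994), Tsr1 (chr11:74898092-74898121) and Wdr43 (chr17:71616220-71616249). On the minus strand lie those of Ltv1 (chr10:13193092-13193121) and Utp20 (chr10:88826765-88826794).
Ltv1: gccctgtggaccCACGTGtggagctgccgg
Mybbp1a: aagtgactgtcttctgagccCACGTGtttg
Nop2: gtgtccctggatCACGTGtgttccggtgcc
Pes1: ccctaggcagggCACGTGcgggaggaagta
Tsr1: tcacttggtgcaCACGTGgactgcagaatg
Utp20: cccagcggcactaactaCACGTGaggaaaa
Wdr43: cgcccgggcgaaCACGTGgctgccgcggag
Nop2, which encodes a large subunit RNA methyltransferase, was the 1 gene of these with the match before the start site, its first base 60 bases upstream. In the others the first base of the match lay 2 to 40 bases after it. The bases before the Nop2 start (chr6:125131633-125131882, plus strand) are shown for longer context.
Nop2 upstream: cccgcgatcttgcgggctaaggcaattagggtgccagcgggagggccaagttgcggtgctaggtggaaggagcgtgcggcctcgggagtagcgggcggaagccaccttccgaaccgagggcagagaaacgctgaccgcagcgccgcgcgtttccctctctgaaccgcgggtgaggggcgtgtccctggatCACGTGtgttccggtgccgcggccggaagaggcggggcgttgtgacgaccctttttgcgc
The 7 genes with a match had a median difference between the KI mice of 1.08 (log2, from 0.78 to 1.33), and the 27 with an entry and no match 0.94 (from 0.07 to 2.00). Their median fold changes between genotypes were -0.04 and -0.20. The range between the KI mice of the genes with a match lay inside that of the genes without one, a set of 27 against 7, where the larger set can be expected to span more. Between genotypes the ranges, -0.52 to 0.35 and -0.79 to 0.31, overlapped over most of their length.

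Other genes of the pathway were read from the same fit. Of 144 further assembly genes 142 were matched by name and tested, and 0 were called by edgeR. The fold change was positive in 60 and negative in 82 with TMM, at a median of -0.07, and positive in 134 with library size only, at a median of 0.39. With TMM, 1 gene had an unadjusted p under 0.05, where 9.63% of all genes did. That gene was Tma16, a large subunit assembly factor, with 11.4 and 35.1 CPM in KI and 6.44 and 9.33 in KD (log2 -1.57 ± 0.61, SE, adjusted p = 0.518). In 140 of the 142, KI replicate 2 was above KI replicate 1, at a median ratio of 1.69.

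By role, late small subunit factors were negative in 7 of 7 genes tested, with a median of -0.37, but in 3 of 7 with library size only. Further RNA polymerase I genes were positive in 11 of 17, with a median of 0.11, and in 9 to 17 of them over the 5 scalings. Among the former, the kinase Riok3 had 117 and 161 CPM in KI and 106 and 109 in KD (log2 -0.37 ± 0.29, SE), and the kinase Riok1 32.2 and 59.9 in KI and 28.7 and 37.0 in KD (-0.49 ± 0.40). Among the latter, Tcof1, the nucleolar protein treacle, had 51.5 and 73.6 in KI and 78.0 and 108 in KD (0.57 ± 0.33, adjusted p = 0.661). Both KD mice lay above both KI mice for Tcof1, and below both for Riok3 and for Ttf1, the transcription termination factor of RNA polymerase I (-0.28 ± 0.30). Such groups stood apart in 5 of the 142 further genes upward and 9 downward, where 14.5% and 23.5% of all genes tested did. Further processome genes had a median of 0.05 over 40 genes, with Dhx37 at 0.52 ± 0.39 and Mphosph10 at -0.34 ± 0.34. The 53 large subunit factors had -0.10, with Rrp15 at -0.58 ± 0.54, and the 15 exosome and trimming genes -0.01, with Exosc10 at 0.35 ± 0.29 and Exosc2 at -0.55 ± 0.62. For 10 snoRNP core and assembly genes the median was -0.08, with Pih1d1 at 0.39 ± 0.37 and Znhit6 at -0.53 ± 0.54. The medians of these last 4 roles are with TMM, and with library size only they were all positive, from 0.35 to 0.49.

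Among the partners and antagonists of Myc, 4 of 10 genes tested had a positive fold change with TMM and 3 to 6 over the 5 scalings. Mxd1, which competes with Myc for Max and is known to come up as myeloid cells mature, had 179 and 133 CPM in KI and 65.7 and 31.2 in KD (log2 -1.69 ± 0.42, SE, adjusted p = 0.518). Its groups did not overlap, as in 38.0% of all genes tested. It was the 1 gene of the 10 with an unadjusted p under 0.05, where 9.63% of all genes tested passed. The late neutrophil markers were also lower in both KD mice, by the sums given above, and their part in the Mxd1 level was not tested. Mycl had 5.57 and 1.42 CPM in KI and 1.20 and 0.95 in KD. Of 16 Myc targets outside ribosome assembly, 6 were positive with TMM, at a median of -0.03, and 13 with library size only. Ccnd2, a D-type cyclin, had 31.8 and 48.6 CPM in KI and 13.02 and 12.4 in KD (-1.66 ± 0.35, adjusted p = 0.518). It was the 1 gene of these 16 with an unadjusted p under 0.05, beside the same 9.63% of all genes. Nampt, an enzyme of NAD synthesis, had -0.47 ± 0.31. In this list 15 of 16 genes were higher in KI replicate 2 than in KI replicate 1, at a median ratio of 1.96.

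Several members share their locus with other transcripts. In RefSeq, 7 of the 40 (Ncl, Gnl3, Nop56, Nop58, Dkc1, Wdr43 and Tsr1) have snoRNA genes within their span, and 10 overlap a protein-coding gene. Reads that lie in more than 1 gene can be counted for neither or for the wrong one, and neither counting mode nor strand setting is stated in the labels, so the values of these 13 members in all are uncertain to that extent.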

How the data were processed

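RNA was sequenced from 4 TruSeq Stranded mRNA libraries. The authors deposited raw counts per Ensembl gene; HTSeq, DESeq, SAMtools and TopHat2 2.0.10, with build GRCm38, are listed in the submitters' processing notes. No label states the strand setting, the counting mode or the annotation release. Entries that name no gene, 93.2% to 97.9% of each library's total and mostly alignments that were not unique, were left out. The 1616 columns of the H3 and H3K9ac tables name no library and are not used here.

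Counts were analysed in R 4.3.3 with edgeR 4.0.16 (filterByExpr, TMM, glmQLFit, glmQLFTest, genotype as the only term, Benjamini-Hochberg adjustment over 13822 genes at 0.05). Fold changes are log2, KD minus KI, with the standard error and 95% interval of that fit. Differences between single mice are log2 CPM with a prior count of 3. The error behind each edgeR p comes from the spread within genotypes among these 4 mice. For each gene it is drawn toward that of the other genes (3.56 prior degrees of freedom). Scaling was varied (library size only, upper quartile, RLE, TMM of named protein-coding genes), as were the filter (none, or 5 CPM in at least 2 libraries) and the tool (limma-voom of limma 3.58.1, DESeq2 1.42.0). Further alternatives were the replicate number as a block, leaving out each library with the tested genes kept, and, added after the data were seen, scaling to the members' median. The edgeR step was tested on simulated data, and no result given here rests on that test.

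Members and gene lists were chosen with earlier results of these data known. Genes given in full were Myc, Ncl, Npm1, Fbl, Polr1a, Polr1b, Ubtf, the 10 members with the lowest p, the 2 nearest to 0, and the 2 genes of lowest p in each role of the other lists.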

Additional observations from a re-analysis of the deposited data

How the results depend on the processing

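No member was called under any of the 14 alternatives, the lowest adjusted p being 0.093 without KI replicate 2. The count of genes called, 0 with edgeR and all 4 libraries (1331 at an unadjusted p under 0.05), was 169 with no filter, 144 with DESeq2, 7 with the replicate number as a block, and 39 to 787 when 1 library was left out, where the remaining mouse of that genotype is taken to have the spread of the other pair. Whether same-numbered mice share more than a number cannot be told from the labels. The difference of replicate 2 from replicate 1 in KI was set against that in KD. Their Pearson correlation was 0.249 across the 13822 genes and 0.42 across the 40 members. The block called 0 members and changed none of their calls. Members with an unadjusted p under 0.05 numbered 0, but 3 with library size only and 0 to 8 when 1 library was left out (5 without KI replicate 1, 8 without KI replicate 2). With library size only, 1898 of the 13822 genes passed that threshold, a larger share than among the members. The share of all genes was also the larger without KI replicate 1 and without KI replicate 2. These member counts thus did not stand above the background of the same fits. The members' median, -0.11, was -0.42 when KI replicate 1 was dropped and 0.56 when KI replicate 2 was. The share higher in KD among genes at that unadjusted threshold was 13.4% with TMM, 77.2% with library size only and 22.7% with TMM of named protein-coding genes.

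Of 503 values of 36 named genes under these alternatives, 453 kept direction and side of the threshold, 6 passed it, and 44, from 19 genes, turned sign, none past an adjusted p of 0.05. Values with library size only were Myc 0.32, Ncl 0.30, Polr1a 0.42, Polr1b 0.25, Ubtf 0.34, Nop58 0.081, Nop10 0.024, Noc3l 0.13, Ttf1 0.16, Mphosph10 0.10 and Riok3 0.072. Polr1a had 0.055 with RLE, 0.054 with DESeq2, 0.086 with TMM of named protein-coding genes, 0.14 with no filter and 0.058 when scaled to the members' median. Ubtf had 0.012, 0.049 and 0.0085 in the last 3 of these settings. Ddx21 had -0.055 with upper quartile factors and -0.058 with the 5 CPM filter, and Myc 0.068 with the block and 0.15 when scaled to the members' median. When 1 library was left out the ranges were -0.69 to 1.11 for Myc, -0.53 to 0.44 for Ncl, -0.11 to 0.86 for Npm1, -0.25 to 1.17 for Fbl, -0.22 to 0.35 for Polr1a, -0.42 to 0.32 for Polr1b, -0.26 to 0.32 for Ubtf, -0.82 to 0.16 for Wdr43, -0.77 to 0.11 for Nob1, -0.64 to 0.22 for Nop58, -0.82 to 0.39 for Nop10, -0.24 to 0.56 for Ddx21, -0.51 to 0.042 for Mphosph10, -0.74 to 0.088 for Riok1, -0.98 to 0.31 for Rrp15 and -1.06 to 0.76 for Exosc2. In these the high end of each negative gene was reached without KI replicate 2. Gfi1 passed with no filter (-3.78), DESeq2 (-3.76), without KD replicate 1 (-5.78) and without KD replicate 2 (-3.12), and Tma16 (-2.03) and Ccnd2 (-1.80) without KI replicate 1.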

Other observations

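RNAs without a coding sequence that act in ribosome assembly were looked at after the data were seen. Rmrp, the RNA of the RNase MRP enzyme that cuts the ribosomal RNA precursor, had 632 and 1267 CPM in KI and 1083 and 1107 in KD (log2 fold change, KD minus KI, 0.20 ± 0.45, SE). Rnu3a, a U3 snoRNA of the small subunit processome, had 46.8 and 169.7 CPM in KI and 125.4 and 124.1 in KD (0.20 ± 0.59). In both the KD mice lay between the KI mice, with KI replicate 1 lowest. Rpph1, the RNase P RNA that trims transfer RNA precursors, had 1425 and 4546 CPM in KI and 3547 and 4563 in KD (0.44 ± 0.65). The 138 snoRNA genes named Snora or Snord summed to 109 and 209 CPM in KI and to 158 and 218 in KD. Gas5, a host transcript of snoRNAs, differed less between the mice, at 125.0 and 109 CPM in KI and 129 and 137 in KD (0.18 ± 0.26). These RNAs are mostly not polyadenylated, and the libraries were made from selected mRNA, so their levels also depend on what the selection let through.

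Gm26917 and Gm42418, a pair of loci known to overlap ribosomal RNA sequence, had a different order of the mice. Gm26917 had 4207 and 6539 CPM in KI and 7665 and 5478 in KD, and Gm42418 had 3328 and 4735 in KI and 6239 and 3387 in KD. For these loci KD replicate 1 was the highest library with TMM. Of the 40 members, 40 were lower in KD replicate 1 than in KD replicate 2 with TMM, and 30 to 37 with the other scalings.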
